A study of Rattus norvegicus with 8 samples.

Results

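Mitochondrial ribosomal protein genes were taken as all genes whose single annotated symbol begins with Mrpl or Mrps followed by a digit. The array named 97 such probe sets, groups of short probes near the 3' end of a transcript. They covered 73 genes, of the 14217 genes that the array named by 1 symbol. Where a gene had several, the brightest on average stood for it. Mitochondria carry their own ribosome, which translates the few proteins still encoded in mitochondrial DNA, all of them subunits of the respiratory chain and ATP synthase. Its ribosomal RNAs are transcribed inside the organelle, but all of its proteins are encoded in the nucleus, made in the cytosol and imported. Some have counterparts in the bacterial ribosome and others are specific to mitochondria. Mature mammalian red cells have lost both ribosomes and mitochondria, while their RNA-bearing precursors, platelets and white cells still carry mitochondria.

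The arrays came from the blood of 8 male Wistar rats. The animals were 7 weeks old when purchased, were given CE-2, a normal chow, during 1 week of acclimation, and were then kept for 8 weeks on their assigned food. The normal group (4 arrays) had the normal diet, and the high-fat group (4 arrays) ate a high-fat chow called Quick fat. Blood was taken on day 56 after an overnight fast, so all 8 values are from fasted animals. The labels name 10 rats per diet group and number the arrays as biological replicates. A further high-fat group given mulberry leaf powder is not analysed here. In unfractionated blood, fewer cells of a type and less RNA per cell cannot be told apart. Some transcripts of red cells, platelets, neutrophils and T cells were bright. Hbb, the beta globin, had a mean level of 15.09, and the platelet factor Pf4 12.82. The neutrophil protein S100a9 stood at 11.59 and the T cell receptor chain Cd3e at 9.87. Of the markers measured, 10 of 10 erythroid, 8 of 8 platelet, 4 of 8 neutrophil and 11 of 13 T cell genes lay above the median gene. All 6 liver markers lay below the median gene.

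Values are the deposited log2 intensities. Between arrays they differed very little: the SD of a gene over the 8 arrays had a median of 6.90 millionths of a log2 unit over all genes. For the members it had a median of 10.95 millionths, and it ran from 0.169 (Mrps27) to 564 (Mrpl1). Arrays of different animals usually differ far more than this on a log2 scale, so these differences cannot be read as ratios of RNA and no fold change is given. They are stated in millionths of the deposited unit, or in within-group SDs, that is, divided by the SD that the 2 diet groups share for the probe set. For a scaled level, a gene's 8 values were shifted and stretched so that their mean is 0 and their SD 1.

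Promoters of 59 of the 73 members were listed by RefSeq on build GRCr8, each reaching from 250 bases before to 50 bases after an annotated start. They lay on 18 chromosomes. Motifs of factors known to act on nuclear genes for mitochondrial proteins were searched on both strands. YY1, a zinc finger factor, was searched as AAGATGGC, the ETS family, which includes GABP, as CCGGAAG, and NRF1, nuclear respiratory factor 1, as GCGCATGC. The ETS and YY1 letters can share the bases AAG, the ETS and NRF1 letters can each overlap their own reverse complement, and CACGTG is its own reverse complement, so genes rather than matches were counted. AAGATGGC was found in 14 members, or 23.7%, against 4.87% of the 11700 array genes with a promoter in the table and 3.62% of all 27457 genes in it. CCGGAAG was found in 20 members, or 33.9%, against 15.4% and 9.63%. GCGCATGC was found in 5 members, or 8.47%, against 4.40% and 2.77%. At least 1 of these was present in 32 members, or 54.2%, against 22.3% and 14.7%. Of other common promoter motifs, CCAAT was found in 45.8% of members and 38.6% of array genes, TATAAA in 13.6% and 9.07%, and CACGTG in 10.2% and 9.38%. Members held a median of 18 CG dinucleotides per promoter and array genes 19. Of the 14 members with AAGATGGC, 12 held it between 20 bases before and 30 bases after the start, a place it took in 55.3% of the array genes that held it. These counts are descriptions of letters and show no binding.

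**Figure D1:**
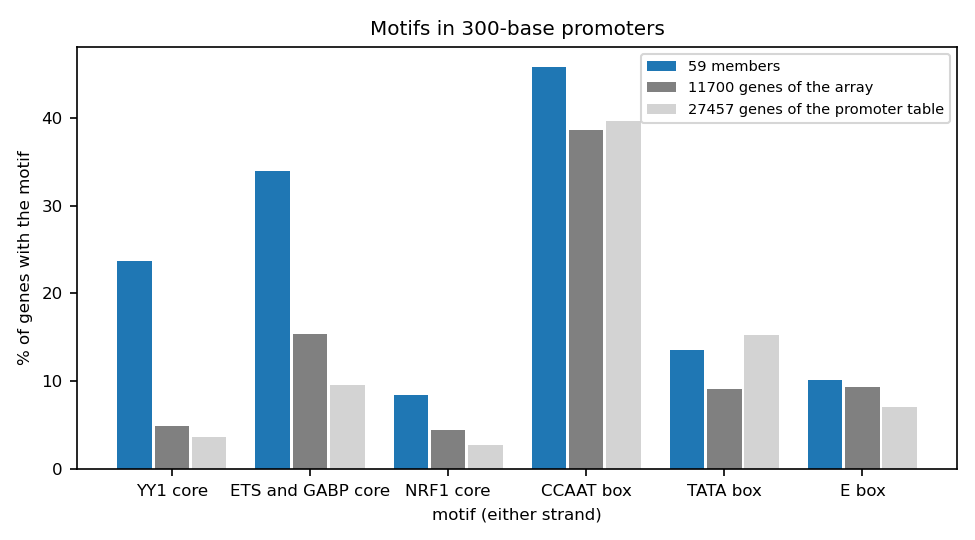
Share of genes (%) whose promoters hold each motif on either strand, for 59 members, 11700 genes of the array and 27457 genes of the promoter table. The bars for the YY1 and ETS letters are higher in the members than in both other sets, and those of the CCAAT and E box letters are close to the array genes.

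Windows of 30 bases are shown for members on which the results below turn, written 5′ to 3′ in the motif's own direction with the motif in capitals. The YY1 letters are given for the Mrps18 paralogs Mrps18a and Mrps18b and for Mrps27 and Mrpl37, which ran against the other members between animals.
Mrps18a (chr9:22367362-22367391, minus strand): ggtgtgttcccAAGATGGCggccctcaggg
Mrps18b (chr20:2843023-2843052, plus strand): ggatgtgcgacAAGATGGCtgcctccttgc
Mrps27 (chr2:32474222-32474251, plus strand): tggtacgctccAAGATGGCggcccccatgg
Mrpl37 (chr5:127074943-127074972, minus strand): ctgcccgggcaAAGATGGCggcgtccaggt
The ETS letters are given for Mrpl20 and Mrpl23, which followed the other members most closely, for Mrps18c, the remaining paralog, and for Mrpl27 and Mrpl30, which are among the 10 members with the smallest p between diets.
Mrpl20 (chr5:171691217-171691246, plus strand): ctagaggcgacCCGGAAGacagtgcttgca
Mrpl23 (chr1:207116852-207116881, plus strand): tagcgcggcctCCGGAAGcgagggggcgct
Mrps18c (chr14:9123028-9123057, plus strand): cgctccccgggCCGGAAGtcacgtgacaca
Mrpl27 (chr10:80092273-80092302, plus strand): gtacgcaagacCCGGAAGtagatctatccc
Mrpl30 (chr9:47621225-47621254, minus strand): ccccccagcagCCGGAAGgagcggaacgga
The NRF1 letters are given for Mrpl17, one of the 3 members with the largest spread between animals.
Mrpl17 (chr1:169575698-169575727, minus strand): gccgagctactGCGCATGCgtcctctggaa

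The members were mostly brighter than the typical gene. Their median level was 7.27, against 6.88 for all 14217 genes. Of the 73, 61 lay above the median of all genes, 26 above its 75th percentile (7.48) and 1 below its 25th (6.43). A level reflects the probes as well as the amount of RNA, so the order that follows is one of intensities. The 5 brightest probe sets all belonged to proteins of the large subunit. They were Mrpl53 (9.92), Mrpl33 (9.11), Mrpl27 (8.51), Mrpl57 (8.37) and Mrpl54 (8.30). Mrpl27 and Mrpl33 have bacterial counterparts, and Mrpl53, Mrpl54 and Mrpl57 are specific to mitochondria. The 5 dimmest were Mrps9 (6.38) of the small subunit and Mrpl19 (6.44), Mrpl30 (6.52), Mrpl38 (6.53) and Mrpl47 (6.55) of the large subunit. Neighbours in each of these lists of 5 lay farther apart than the largest SD of any member between animals.

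By structure, 48 members belong to the large and 25 to the small subunit. Mrps18a and Mrps30 were counted with the large subunit, where their proteins sit in the mammalian mitochondrial ribosome. The 27 large-subunit proteins with bacterial counterparts had a median level of 7.29 and the 21 specific to mitochondria 7.07. In the small subunit, the 15 with bacterial counterparts stood at 7.17 and the 10 specific to mitochondria at 7.36. The 4 ranges overlapped. The Mrps18 paralogs are 3 relatives of bacterial S18 that occupy different places, Mrps18a in the large subunit and Mrps18b and Mrps18c in the small. Their levels were 7.07, 7.33 and 7.22. RefSeq lists 40 rat pseudogenes under symbols of this family, and RNA of a near-identical copy could enter a probe set.

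**Figure D2:**
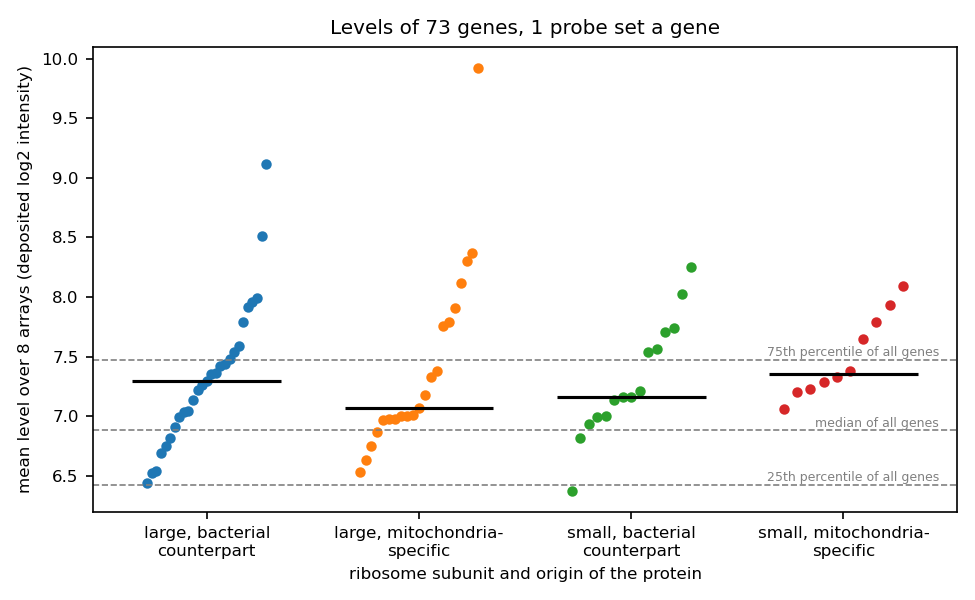
Mean level over the 8 arrays (deposited log2 intensity) of 73 members, one point a gene, by subunit and origin of the protein. Black bars are group medians, between 7.07 and 7.36, and dashed lines are quartiles of all genes. Most points lie above the median of all genes.

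Between animals most members varied together, in a like way within both diets. Their mean scaled level was -0.164, 0.764, -0.858 and 0.437 in normal replicates 1 to 4, and -0.376, 0.470, -0.660 and 0.386 in high-fat replicates 1 to 4. Replicates 2 and 4 were high and replicates 1 and 3 low in each diet, with replicate 3 the lowest, so the animals of the diets overlapped fully. Normal replicate 3 held the lowest value of 32 members (43.8%, against 24.6% of all genes), and high-fat replicate 3 that of 16 (21.9%, against 10.9%). The highest value lay in normal replicate 2 for 25 members (34.2%, against 15.4% of all genes). Each of normal replicate 4 and high-fat replicate 4 held the highest value of 14. The labels do not say whether a shared replicate number marks a shared litter, day or batch. Genes outside the family also took part in this pattern. The leading axis of variation of all 14217 genes, after removing diet means, took 38.3% of their scaled variance with its lowest weights on both replicates 3 (-0.675 in the normal and -0.392 in the high-fat group). Of the members, 68 of 73 (93.2%) ran with that axis, against 49.99% of other genes, which were split evenly.

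**Figure D3:**
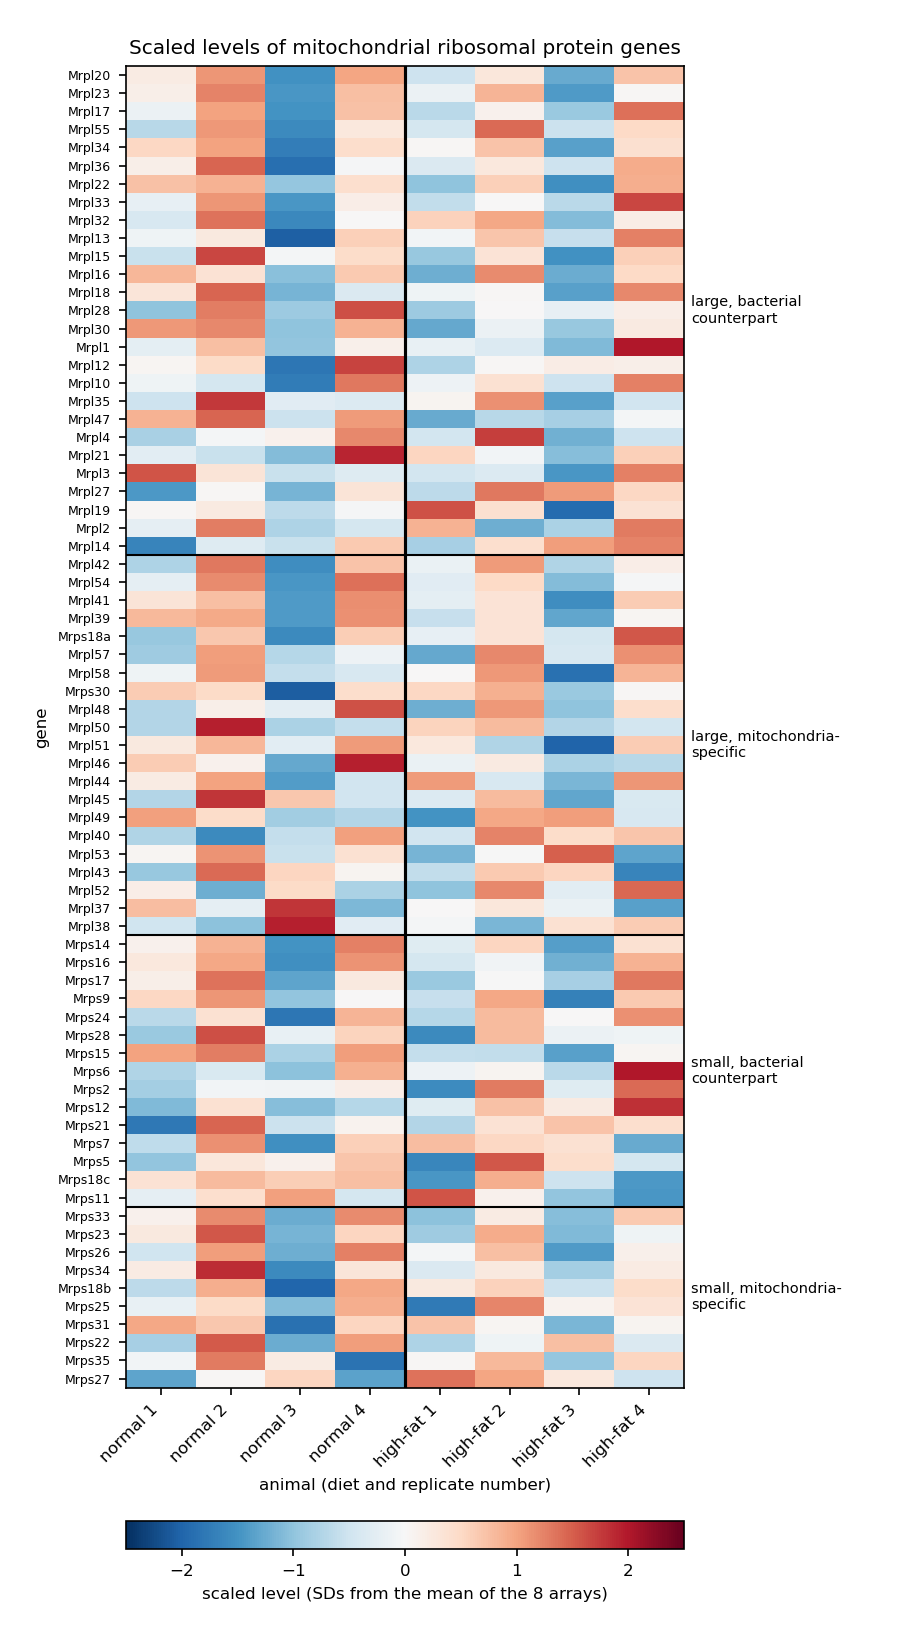
Scaled level (colour, SDs from the mean of the 8 arrays) of 73 members in 4 normal and 4 high-fat animals, by subunit and origin and, within these, by correlation with the mean of the other members. The columns of both replicates 3 are mostly blue and those of both replicates 2 and 4 mostly red, while Mrpl37 and Mrpl38 show the opposite colour in normal replicate 3.

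Single members show the shape. Mrpl20, a large-subunit protein with a bacterial counterpart, lay at 7.26, 40.4, -55.4 and 36.2 millionths in normal replicates 1 to 4 and -18.98, 10.3, -45.9 and 26.1 millionths in high-fat replicates 1 to 4, as deviations from its mean over the 8 arrays. Mrpl23, which lines the exit of the peptide tunnel, lay at 9.07, 81.6, -95.4 and 50.3 millionths in normal replicates 1 to 4 and -9.69, 56.5, -93.95 and 1.68 millionths in high-fat replicates 1 to 4. Both genes were lowest in the 2 animals numbered 3. Mrps33, a small-subunit protein specific to mitochondria, lay at 4.38, 47.9, -49.8 and 47.3 millionths in normal replicates 1 to 4 and -41.3, 8.10, -43.1 and 26.6 millionths in high-fat replicates 1 to 4, with high-fat replicate 1 about as low as the replicates 3. These 3 had the highest mean correlation with the other 72 members, 0.563, 0.551 and 0.552 (Pearson, over the 8 arrays).

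A few members ran the other way. Mrpl38 lay at -1.53, -3.15, 6.02 and -0.848 millionths in normal replicates 1 to 4 and -0.152, -3.51, 1.20 and 1.97 millionths in high-fat replicates 1 to 4, highest in normal replicate 3, and its mean correlation with the others was -0.450. Mrpl37 stood at -0.391 and Mrps27, a protein with pentatricopeptide repeats, at -0.194. The deviations of Mrps27 never passed 0.231 millionths, the smallest spread of any member. With the mean scaled level of the other 72, 5 members had a correlation below 0: these 3, Mrps11 and Mrpl52. For Mrpl52 this depended on the probe set. The one used (level 7.79, SD 0.405 millionths) stood at -0.0311. The other (level 7.70, SD 10.6 millionths) stood at 0.879. At the other end of the range of spread, Mrpl1, a protein of the stalk by which spent tRNA leaves, lay at -143, 426, -555 and 73.6 millionths in normal replicates 1 to 4 and -110.0, -191, -627 and 1126 millionths in high-fat replicates 1 to 4. High-fat replicate 4 stood far above the rest. Mrpl14, a protein at the face between the subunits, lay at -293, -55.6, -97.9 and 116 millionths in normal replicates 1 to 4 and -148, 73.6, 185 and 219.5 millionths in high-fat replicates 1 to 4, lowest in normal replicate 1. Mrpl17, the remaining gene of large spread, followed the common pattern, with a correlation of 0.915 with the mean of the others.

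Over all 2628 pairs of members, the median correlation was 0.424, with 80.5% of pairs above 0. Over all pairs of the 14217 genes the median was -6.85e-04, with 49.9% above 0. All pairs share the same 8 arrays, so these are descriptions and carry no p. Removing the diet means left the median of the members at 0.471. Removing the mean of each replicate number took it to 0.0482, against 0.00622 over all genes. Without both animals numbered 3, a choice made after seeing the data, it was 0.304. Pairs of a large- with a small-subunit gene had a median of 0.434, about that of all pairs. Within groups, the large-subunit proteins with bacterial counterparts stood at 0.534 and those specific to mitochondria at 0.200. In the small subunit the order was turned, at 0.323 and 0.568.

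**Figure D4:**
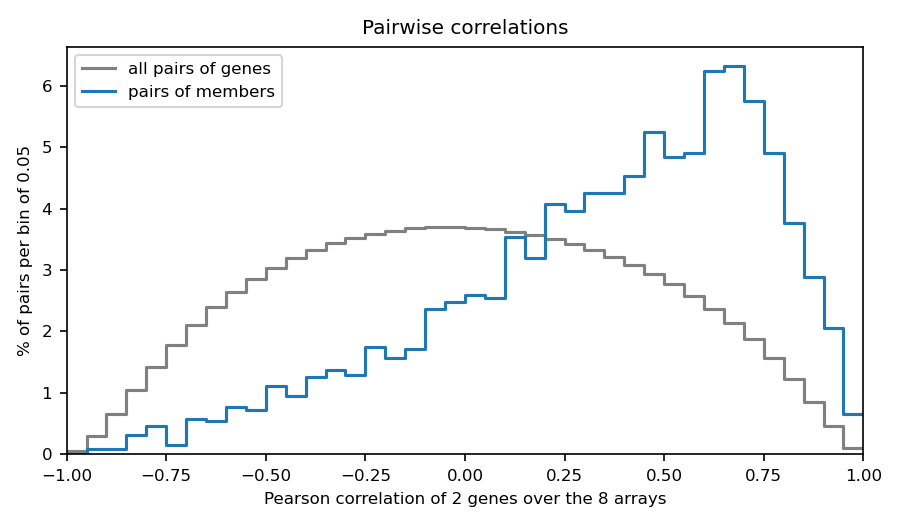
Share of pairs (% per bin of 0.05) by the Pearson correlation of 2 genes over the 8 arrays, for 2628 pairs of members and all pairs of 14217 genes. The line of the members is shifted to the right, with a median of 0.424, and the line of all genes is centred near 0.

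The level of a probe set moved with this covariation. The brighter members (36 genes above the median member) had a median pairwise correlation of 0.549 and the other 37 one of 0.321. Over all genes, pairs above the median level had a median of 0.0894 and pairs at or below it 0.0440. The 24 further probe sets of members, which were dimmer and so not used, had 0.0447 among themselves. With the mean of the other members, these 24 had a median correlation of -0.247, and 5 of them were over 0.5. Among the 7047 genes that are no members but lie above the median level, 46.4% had a correlation over 0.5 with the mean of the members, against 50 of the 73 members with the mean of the other 72. The part of signal strength in the pattern was not tested. Deposited intensities give no measure of signal over background for a single probe set.

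Probe sets of the same gene did not repeat one another. Of the 18 members with several probe sets, 13 had 2, 4 had 3 and 1 had 4. The median over these genes of the correlation between their own probe sets was -5.92e-04. It was over 0.5 in 3 genes and below 0 in 9. In 4 of the 18 genes the difference between diets had the same sign in every probe set. The closest correlations were those of Mrps14 (0.809) and Mrpl37 (0.709). The 3 probe sets of Mrpl37 had like differences between diets, of -0.600, -0.565 and -0.587 within-group SDs and levels of 7.91, 6.97 and 6.96. The 3 probe sets of Mrps2 had levels of 7.74, 7.61 and 6.22 and differences of 0.403, -0.251 and -0.0898. Those of Mrps18c had differences nearer 0 or above it at lower levels, with -1.58, -0.899 and 0.0507 within-group SDs for levels of 7.22, 6.66 and 5.97. The 4 probe sets of Mrpl51 stood at -0.991, -0.440, 0.831 and 0.0301, and the 3 of Mrps27 at 1.16, -0.285 and -0.0525. Among genes with 2 probe sets, the levels lay farthest apart in Mrps26 (8.10 and 6.12), Mrps15 (7.16 and 6.22) and Mrpl12 (7.04 and 6.24). Mrpl12 is the stalk protein that recruits translation factors.

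Between diets, no member was distinguished. With limma, 0 of the 97 probe sets passed an adjusted p of 0.05, as did 0% of all 31042 probe sets. At an unadjusted p under 0.05 there were 2 members, Mrpl47 and Mrps15, both lower in the high-fat group, against 2% of all genes and 699 (2.25%) of all probe sets. No member had 4 high-fat values all above or all below the 4 normal ones, where 1.32% of all genes did. Such separation was seen in 0 of the 97 probe sets, against 1.44% of all probe sets. A difference over 1 within-group SD was seen in 8 of 73 members, against 12.2% of all genes. Of the 73, 30 had a higher and 43 a lower mean in the high-fat group, against 47.4% higher among all genes. The median difference was -0.110 within-group SDs, against -0.0374 over all genes. The mean scaled level was 0.0448 ± 0.714 (SD, n = 4) in the normal and -0.0448 ± 0.560 in the high-fat group, a gap well inside the spread of the animals.

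The direction of the list rested on single animals. Without normal replicate 3 the number of higher members was 17 (23.3%, against 45.7% of all genes) and the median -0.420 within-group SDs. Without normal replicate 2 or high-fat replicate 3 it was 42 (57.5%, against 50.4% and 49.4% of all genes), with medians of 0.191 and 0.100. Without both animals numbered 3 it was 27 (37.0%, against 46.0% of all genes), with a median of -0.199. Centring each array on its median shifts every difference by -65.96 millionths, more than the difference of 71 of the 73 members. It then leaves 2 of the 73 members higher, against 2.38% of all genes. It puts 49 of the 73 members without overlap between diets, a larger share than the 49.1% of all genes.

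**Figure D5:**
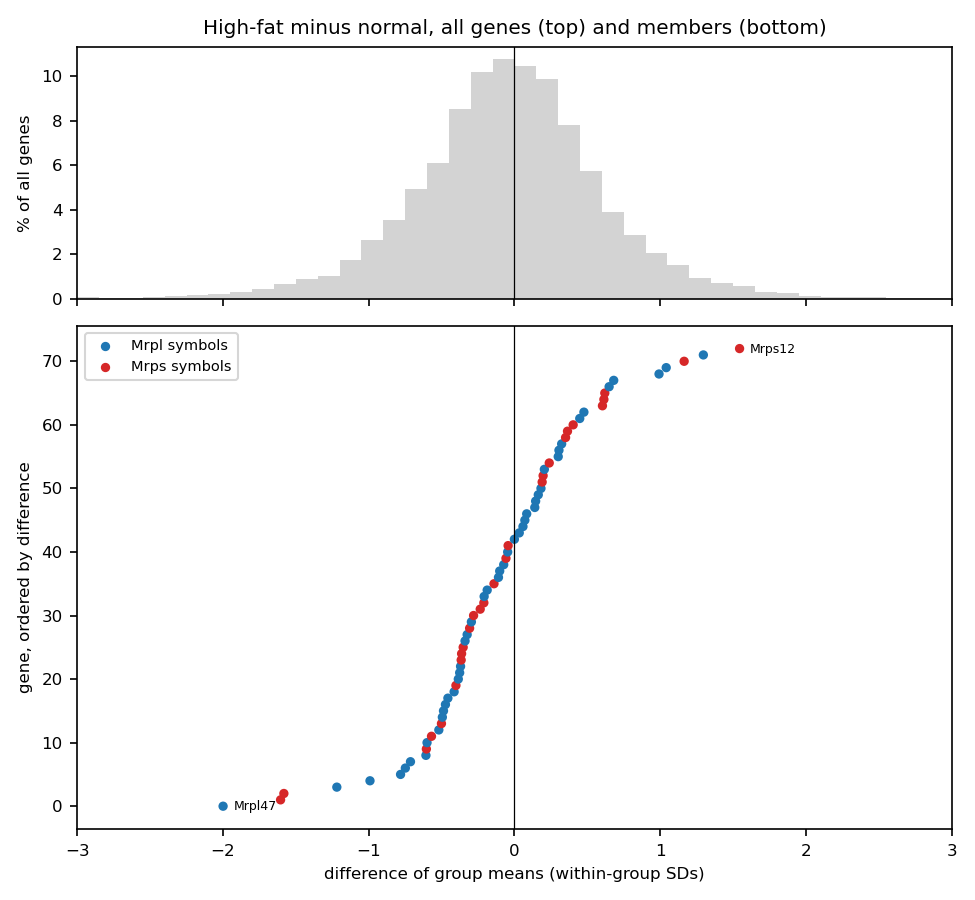
Difference of group means, high-fat minus normal, in within-group SDs: the share of all 14217 genes per bin (top, %) and the 73 members, one point a gene in order of the difference (bottom). The members run from -2.0 (Mrpl47) to 1.54 (Mrps12), and no adjusted p passed 0.05.

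The 10 members with the smallest p are given as values, since limma left the adjusted p of each at 1. Mrpl47, which sits by the exit of the peptide tunnel, lay at 9.56, 15.99, -6.02 and 11.7 millionths in normal replicates 1 to 4 and -13.9, -7.64, -9.16 and -0.609 millionths in high-fat replicates 1 to 4. The normal animals were higher apart from replicate 3, which lay among the high-fat ones. The difference was -15.6 ± 5.26 millionths (SE, n = 4 and 4), or -2.0 within-group SDs, and -4.28 without normal replicate 3. Mrps15, a small-subunit protein with a bacterial counterpart, lay at 12.97, 16.3, -10.2 and 13.5 millionths in normal replicates 1 to 4 and -7.73, -8.01, -17.5 and 0.636 millionths in high-fat replicates 1 to 4, with the same exception. Its difference was -16.3 ± 6.81 millionths (SE, n = 4 and 4), or -1.61 within-group SDs (-3.82 without normal replicate 3), and its second probe set stood at 0.166. Mrps18c lay at 8.16, 18.3, 14.01 and 17.2 millionths in normal replicates 1 to 4 and -33.3, 20.6, -11.9 and -32.9 millionths in high-fat replicates 1 to 4. Here high-fat replicate 2 was the highest of all 8 animals while the 3 other high-fat animals were the lowest. The difference was -28.8 ± 12.1 millionths (SE, n = 4 and 4), or -1.58 within-group SDs, and -4.76 without high-fat replicate 2. The other paralogs, Mrps18a at 0.614 and Mrps18b at 0.351, had the opposite sign.

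Among members with a higher high-fat mean, Mrps12, a protein of the decoding centre, lay at -5.43, 1.89, -5.25 and -3.54 millionths in normal replicates 1 to 4 and -1.46, 3.61, 1.13 and 9.06 millionths in high-fat replicates 1 to 4. Normal replicate 2 overlapped the high-fat animals, and high-fat replicate 4 was the highest. The difference was 6.17 ± 2.76 millionths (SE, n = 4 and 4), or 1.54 within-group SDs. Mrpl27, whose bacterial counterpart reaches the site of peptide bond formation, lay at -11.7, 0.176, -9.42 and 2.60 millionths in normal replicates 1 to 4 and -5.29, 10.7, 8.66 and 4.25 millionths in high-fat replicates 1 to 4, and its difference was 9.16 ± 4.76 millionths (SE, n = 4 and 4), or 1.30 within-group SDs (2.14 without high-fat replicate 1). Both groups overlapped, since high-fat replicate 1 lay below normal replicates 2 and 4. Of the remaining 5, Mrpl30, Mrpl51 and Mrpl15 stood at -1.22, -0.991 and -0.782 within-group SDs, and Mrpl14 and Mrpl40 at 0.992 and 1.04. Leaving out the animal that shifts each value most moved all 5 by over 1.5 times: Mrpl30 stood at -2.90 without normal replicate 3, Mrpl40 at 2.24 without normal replicate 4, Mrpl14 at 1.75 without high-fat replicate 1, Mrpl51 at -1.52 without high-fat replicate 4 and Mrpl15 at -0.402 without normal replicate 2. None of these values passed an adjusted p of 0.05 in limma. After centring, Mrps12, Mrpl27 and Mrpl40 turned to -1.17, -1.07 and -1.19. Mrps27 had a difference of 1.16 within-group SDs but ranked far behind these genes in limma, which raises very small spreads, and its difference was 0.177 ± 0.773 millionths (SE, n = 4 and 4). By structure, 11 of 27 large-subunit genes with bacterial counterparts and 10 of 21 specific to mitochondria were higher in the high-fat group. In the small subunit these counts were 6 of 15 and 3 of 10. The medians of the 4 groups lay between -0.210 and -0.0739 within-group SDs.

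Of the other genes of mitochondrial protein synthesis, from lists drawn up with earlier results known, none passed limma at an adjusted p of 0.05 or at an unadjusted p of 0.05. Ribosomal proteins under other symbols (Dap3, Ptcd3, Chchd1, Aurkaip1 and Gadd45gip1) stood higher in the high-fat group in 2 of 5 cases, with a median difference of -0.158 within-group SDs. The smallest p was that of Aurkaip1, at -1.12. The list of translation factors of the organelle also held the RNA-binding proteins Lrpprc and Slirp and the insertase Oxa1l. It had 9 of 14 higher and a median of 0.174, with the release factor Mtrf1 at 1.16. Factors that assemble the ribosome had 7 of 27 higher and a median of -0.136. The helicase Ddx28, needed for the large subunit, stood at 1.54, and its groups did not overlap, as in 1.32% of all genes. The list of mitochondrial tRNA synthetases also held Gatb, Gatc and Qrsl1, subunits of an amidotransferase, which were among the higher genes. It had 9 of 16 higher and a median of 0.0445, with Wars2, for tryptophan, at -1.37. Genes of mitochondrial transcription, DNA upkeep and biogenesis had 6 of 17 higher and a median of -0.329, with the transcription factor Tfb2m at -1.01.

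The partners had lower correlations among themselves than the ribosomal proteins. Their lists were also dimmer, with median levels of 6.72 for the translation factor list and 7.17 for assembly factors. The tRNA synthetase list stood at 6.67 and transcription and biogenesis at 7.15, against 7.27 for the members. The part of level in the lower correlations was not tested. Their median pairwise correlations were 0.0955 for the translation factor list and 0.0681 for assembly factors. They were 0.0322 for the tRNA synthetase list and 0.132 for transcription and biogenesis, against 0.424 for the members. The 5 ribosomal proteins under other symbols stood at 0.590. Groups chosen by symbol from other machines had 0.605 (47 cytosolic ribosomal proteins), 0.659 (37 proteasome subunits) and 0.253 (75 subunits of the respiratory chain and ATP synthase). No difference between these medians was tested. Normal replicate 3 was the lowest animal in each of these 3 groups, at mean scaled levels of -0.958, -1.15 and -0.873. High-fat replicate 2 separated them, at -0.325 for the cytosolic ribosomal proteins and -0.0046 for the respiratory chain group. The proteasome subunits stood at 0.462 there, close to the 0.470 of the mitochondrial ribosomal proteins. Their mean scaled level had the same sign as that of the members in each animal.

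Markers of white cells shared part of this pattern. The T cell list, with 13 of 14 markers measured, lay between -1.09 and 0.852 in the normal and between -0.515 and 0.309 in the high-fat animals, and normal replicate 3 was the lowest of all. Among the high-fat animals it did not follow the members: replicate 4 was lowest, at -0.515, and replicate 3 stood at -0.152, where the members were at 0.386 and -0.660. The B cell list, with 7 of 10 measured, lay between -0.809 and 1.03 and between -1.12 and 0.742, with both replicates 3 lowest, but it too was below 0 in high-fat replicate 4, at -0.400. Over the 8 arrays, the B cell genes had correlations with the mean of the members from 0.373 (Fcrla) to 0.882 (Ms4a1). Of the T cell genes, Cd4 (-0.699), Cd28 (-0.331) and Il7r (-0.259) were below 0. The other T cell genes ran from 0.507 (Cd5) to 0.809 (Lck). The part of white cell shares in the levels of the members was not tested. Red cell markers did not follow the pattern: the erythroid list, with 10 of 14 measured, stood between -0.473 and -0.325 in the normal animals, and at 1.03 in high-fat replicate 3, its highest value. The neutrophil list (8 of 10 measured) was lowest in normal replicate 3, at -0.988, and nearly as low in high-fat replicate 2, at -0.938. The monocyte (8 of 8), natural killer (10 of 10) and platelet (8 of 10) lists set high-fat replicate 4 apart, at 2.12, 2.10 and -1.44. The 6 liver genes, all dim, were highest in the replicates 3, at 1.07 and 0.916.

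The 5 genes outside the family whose values ran closest to the mean scaled level of the members over the 8 arrays were Ddx60 (r = 0.996), Usp25 (0.994), Trmt112 (0.994), Fkbp3 (0.992) and Hycc2 (0.986). Ddx60 encodes an antiviral helicase, Usp25 a ubiquitin protease, Trmt112 a partner of several methyltransferases and Fkbp3 a nuclear immunophilin. They are the top of 14144 genes, of which 4238 had a correlation over 0.5.

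Some members share a start region with a neighbour on the other strand. On GRCr8, 18 of the 59 members in the promoter table (30.5%) had a start of a head-to-head neighbour within 1000 bases, against 14.6% of the 11700 array genes. Mrpl46 and Mrps11, of the large and the small subunit, start 234 bases apart, and their correlation over the 8 arrays was -0.102. Mrpl47 is paired with Ndufb5, a subunit of respiratory complex I (r = 0.710), Mrpl32 with the proteasome subunit Psma2 (0.774), Mrps7 with the sorting adaptor Gga3 (0.691) and Mrps18c with the helicase Helq (0.398). Over the 13 distinct pairs with both genes measured the median was 0.320, below the 0.424 of pairs of members, and 5 were over 0.5. Motif content did not order the covariation in 1 way. The median correlation with the mean of the other members was 0.641 in the 14 members with AAGATGGC and 0.717 in the 45 without. With CCGGAAG the values were 0.714 in 20 and 0.693 in 39, and with GCGCATGC 0.856 in 5 and 0.686 in 54.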

How the data were processed

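Blood RNA of 8 rats was hybridised, per the labels' protocols, to Affymetrix 3' arrays after amplification from 200 ng of total RNA. The authors deposited log2 intensities; background correction, normalization and probe summary are not given in the sources used here, so the scale of differences between arrays is unknown. Of 31099 probe sets, 57 controls were left out. Gene names came from the platform annotation, which gave 1 symbol for 20826 probe sets and several for 436. All 73 members matched GRCr8 by gene number with the same symbol. No 2 arrays held the same values. Groups came from the sample titles.

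The diets were compared by limma 3.58.1 (R 4.3.3; lmFit and eBayes, two-sided) without covariates, and p-values were adjusted by Benjamini-Hochberg across all 31042 probe sets. In simulated data, the fit called most of the widest shifts tried. The noise there was drawn separately for each probe set, unlike the shared variation of the real arrays. Shifts as small as the members' differences were not tried, so a count of 0 does not show that the diets were alike. The number of arrays limits the precision. The p-values set each difference against the spread between these animals, as adjusted by limma with the help of all probe sets. Members and gene lists were chosen with earlier results of these data known, so lists are described by counts and medians without a test. Genes named were the members with the 10 smallest p, the 5 highest and 5 lowest levels, the 3 largest SDs, 3 or more probe sets, the 3 pairs of probe sets farthest apart, the 3 highest and 3 lowest mean correlations, the Mrps18 paralogs, for each pathway list the smallest p, and the 5 genes outside the family most like its mean. Cell type lists and groups chosen by symbol are given as means of scaled levels. Blood markers, head-to-head neighbours, Mrps11, Mrps14, Mrpl52 and Mrpl46 were named after their values were seen.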

Additional observations from a re-analysis of the deposited data

Results flagged for a closer look

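In 3 of 60 checked groups of 4 animals, 1 animal stood apart from the others by Dixon's test at 95%, and chance alone gives about 1 in 20. The gap of that animal to its nearest neighbour took 0.873 of the whole range in the normal group for Mrps15 and 0.853 for Mrpl30, in both cases for the low value of normal replicate 3. For Mrpl12 in the high-fat group it took 0.832, for the low value of replicate 1.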

How the results depend on the processing

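Alternatives changed 1 choice at a time. Leaving out each animal gave 0 probe sets past an adjusted p of 0.05, between 17 and 42 higher members, medians from -0.420 to 0.191 within-group SDs, 0 to 4 members without overlap and pairwise correlations from 0.376 to 0.462. The 4 were seen without normal replicate 3, when 4.85% of all genes did not overlap. Without both animals numbered 3 there were 6, against 7.89%. Centring on array medians gave 2 higher members (2.74%, against 2.38% of all genes) and a median of -1.26, against -1.20 over all genes. It put 49 of 73 members without overlap, a larger share than the 49.1% of all genes. The pairwise correlation was 0.966, against 0.975 over all genes. All 4 high-fat medians lay above all 4 normal ones, so centring sets the direction of most genes. Quantile normalization on top gave 32 probe sets past the threshold and a pairwise correlation of 1.13e-11; it made 4448 genes and 13 members constant. It turned Mrpl27 to -0.707 and Mrpl30 to 0.707 within-group SDs. Both values have the size that arises when 1 array differs and all others are equal. These signs can therefore rest on 1 array. Centring turned Mrps12, Mrpl27 and Mrpl40 to -1.17, -1.07 and -1.19. The mean over all probe sets turned Mrpl51 to 0.0845. Counting all 97 probe sets gave a pairwise correlation of 0.235. The replicate number as a block gave 0 probe sets, 30 higher members and a median of -0.131, and a pairwise correlation of 0.0482. Equal numbers were not taken as pairs, because the labels do not say what a shared number marks. They correlated at -0.122, 0.242, 0.431 and 0.166 over all genes (replicates 1 to 4). The highest correlation with another number was 0.178, 0.212, 0.197 and 0.00966, so that 3 of 4 numbers, all but replicate 1, correlated best with their own, a hint from the data and not from the design. With the block, Mrpl14 stood at 2.06 and Mrps15 at -2.13 SDs of the within-number differences. Of 138 values of the 10 named differences under alternatives, 6 had the other sign, those above, and 0 passed the threshold. Other alternatives, among them the brighter 50% of probe sets, trend and robust fitting and array weights, gave 0 probe sets past the threshold.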
